A study of Arabidopsis with 12 samples.

Results

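The response of wild-type Arabidopsis seedlings to 2 h of shade was measured by RNA-seq, as the difference between 3 shade and 3 white-light libraries of the accession Col-0. Transcript values were summed per gene, and 19650 of 32833 genes, those averaging 1 TPM or more over these 6 libraries, were compared. The Col-0 shade seedlings grew for 7 days under continuous white light and then received 2 h of shade, in which the ratio of red to far-red light was 0.65. The Col-0 white-light seedlings were of the same age and received no shade. Each library was made from whole seedlings, so roots, hypocotyl, cotyledons and young leaves were mixed, and a lower level of a transcript can come from fewer cells of a type or from less RNA per cell, which cannot be told apart in bulk RNA. The series held 12 libraries in all. The other 6 came from the bzip59 insertion mutant (SALK_024459) under both lights, and entered the fit as further groups that share the estimate of the spread.

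Plants sense neighbours through phytochromes, which red light converts to an active form and far-red light converts back. Low red to far-red light inactivates phytochrome B, releases PIF transcription factors, and these raise transcription of auxin synthesis genes and of growth regulators, so that hypocotyls and petioles elongate. The same light also reaches the cryptochrome, HY5 and COP1-SPA branches of light signalling, and several induced genes encode brakes on the response itself.

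Depth could not be stated, because TPM, the share of each transcript among all transcripts after scaling to length, keeps no read counts. Between 19097 and 19689 genes reached 1 TPM in a Col-0 library, and column sums ran between 937165 and 953797 TPM. Spearman correlations between libraries across tested genes, which are not independent replicates, were between 0.9504 and 0.9796 within a light and between 0.9022 and 0.9481 across lights, and the first principal component, with 49% of the variance, separated the lights. The transcript of bZIP59 (AT2G31370), the gene disrupted in the mutant, was at 7.52, 6.15 and 8.32 TPM in bzip59 shade and 3.85, 5.47 and 3.12 TPM in bzip59 white light, against 26.3, 23.1 and 19.9 TPM in Col-0 shade and 17.5, 22.6 and 21.6 TPM in Col-0 white light. Shade library 1 was unlike its companions in several metabolic lists, with summed glucosinolate and sulfur genes at 1494 TPM, against 629 and 739 TPM in shade libraries 2 and 3. White-light library 2 was low in XTH and starvation genes. No label says whether libraries under the same light were grown apart, so p-values measure only the spread between these samples, which may be technical. No source used here gives the strandedness of the libraries or how reads matching several genes were counted, so values of overlapping, antisense and near-identical genes are uncertain.

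Shade moved 1973 genes past the threshold, an adjusted p under 0.05 in limma over all 19650 tested genes, which is 10.0% of them. Of these, 677 rose (3.45%) and 1296 fell (6.60%). Falls outnumbered rises, but the larger changes were rises: 97 genes rose and 61 fell by at least 2 on the log2 scale, and 34 rose and 8 fell by at least 3. Fold changes here are differences of log2(TPM + 1), which understate the change of genes with low values, and the median over all tested genes was -0.013. Genes called higher had a median level of 27.2 TPM in shade and 12.2 TPM in white light, and genes called lower had 10.7 TPM in shade and 22.2 TPM in white light. Together the genes that rose summed to 38032, 40939.8 and 42051 TPM in the shade libraries, against 19964, 16769 and 21544 TPM in white light. The values of the 2 lights did not overlap for 1963 of the 1973 called genes, against 28.0% of all tested genes. The typical precision was an SE of 0.19, or a 95% half-width of 0.41, at the median gene. Without white-light library 2, shade library 2 or shade library 3 the count of called genes was 1285, 1211 or 997, and leaving out shade library 1, white-light library 1 or white-light library 3 gave 2095, 1444 or 1964.

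**Figure D1:**
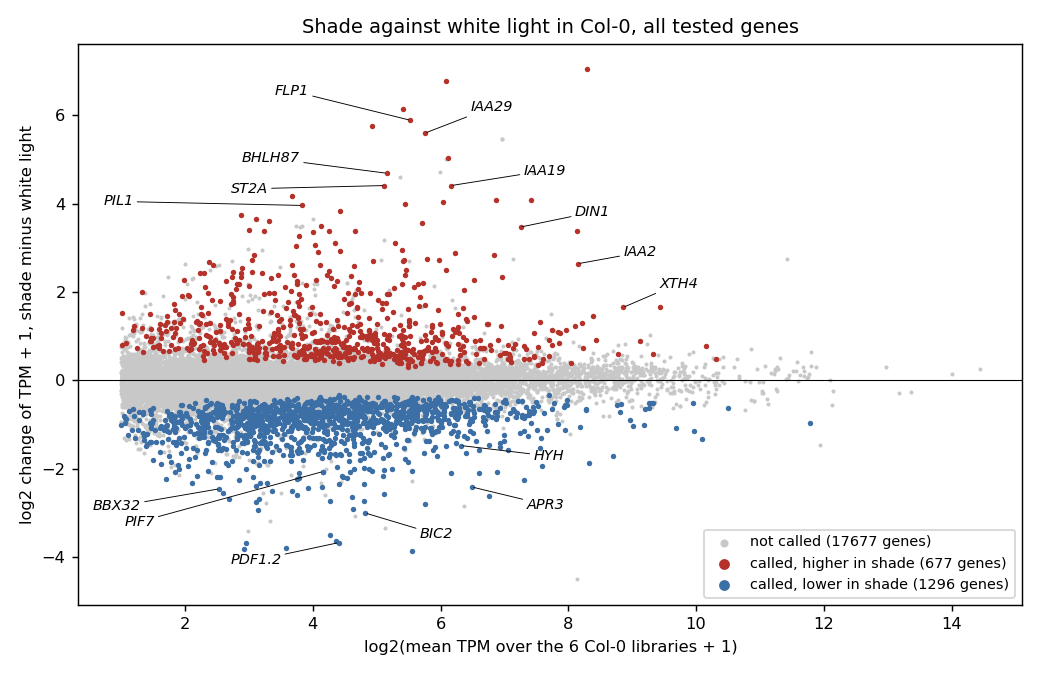
Change between shade and white light in Col-0 (vertical axis, log2 change of TPM + 1) against mean level over the 6 libraries (horizontal axis, log2 of TPM + 1) for the 19650 tested genes, each a point. Red points are the 677 genes called higher in shade and blue points the 1296 called lower; the red points reach further from 0 than the blue ones, with FLP1 and IAA29 near the top.

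The largest rises were picked among called protein-coding genes whose lights did not overlap, so that separation was fixed by the choice. Among them, FLP1, IAA29 and ST2A were abundant in shade and at 2.56 TPM or less in every white-light library, and others were already well expressed in white light. FLP1 (AT4G31380), which encodes a small protein related to FPF1, measured 84.9, 90.6 and 93.1 TPM in shade, against 0, 0.81 and 0.98 TPM in white light (log2 change 5.89, SE 0.23, limma adjusted p = 7.95e-08). IAA29 (AT4G32280) reached 85.3, 118 and 113 TPM in shade, against 1.26, 1.25 and 1 TPM in white light, and ST2A (AT5G07010), which encodes a sulfotransferase that inactivates hydroxylated jasmonate, reached 66.4, 60.2 and 69.4 TPM in shade, against 1.85, 1.96 and 2.56 TPM in white light (log2 change 4.41, SE 0.18, limma adjusted p = 8.66e-08). In each of these the lowest shade library was far above the highest white-light library, and the shade libraries lay close together. AT5G02760, annotated as a protein phosphatase 2C, stood at 265, 361 and 343 TPM in shade, against 19.2, 16.1 and 18.4 TPM in white light (log2 change 4.09, SE 0.19, limma adjusted p = 1.74e-07). AT5G62280, a gene with no described role in the files, was at 172, 250.2 and 236 TPM in shade, against 14.5, 6.44 and 17.2 TPM in white light, and AT5G02540, annotated as a Rossmann-fold oxidoreductase, was at 52.9, 154 and 166 TPM in shade, against 7.01, 4.34 and 6.47 TPM in white light. For AT5G02540 and for the CCCH zinc finger gene TZF5 (AT5G44260), with 21.7, 47.4 and 47.5 TPM in shade, against 2.72, 0.58 and 2.15 TPM in white light, shade library 1 was the lowest of the shade libraries but still clear of white light. AT5G46085 was listed at 0 in every white-light library and at 10.7, 12.9 and 14.1 TPM in shade, and no fold is given for it. Its call ended whichever single Col-0 library was left out (highest limma adjusted p = 0.0999). The fitted rise of AT2G01021 was larger than that of FLP1, but its call ended in 8 of 16 alternatives, among them the fits without white-light library 1 or 2 or any of the shade libraries, with a highest limma adjusted p of 0.157.

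The largest falls were smaller than the largest rises on the log2 scale. They were picked under the same rule, so the lack of overlap between their lights was again fixed by the choice. AT1G02820, listed as the late-embryogenesis gene LEA3, stood at 5.71, 5.39 and 3.57 TPM in shade, against 65.7, 119.6 and 75.9 TPM in white light (log2 change -3.87, SE 0.23, limma adjusted p = 2.19e-06). AT2G27420, annotated as a cysteine proteinase, measured 3.7, 1.4 and 1.28 TPM in shade, against 35.3, 49.9 and 26 TPM in white light (log2 change -3.64, SE 0.28, limma adjusted p = 1.57e-05). ATSPS4F (AT4G10120), a sucrose-phosphate synthase gene, was at 20, 10.2 and 8.35 TPM in shade, against 90.1, 126 and 64.4 TPM in white light (log2 change -2.81, SE 0.33, limma adjusted p = 0.000314). In each of these genes the lights were well apart. The dirigent protein gene DIR21 (AT1G65870) measured 1, 1.24 and 0.84 TPM in shade, against 13.3, 19 and 11.9 TPM in white light, and the cytochrome P450 gene CYP706A6 (AT4G12320) measured 4.61, 3.81 and 3.34 TPM in shade, against 36, 39.8 and 22 TPM in white light. AT4G16880 and AT5G41109 were listed at 0 in every shade library, against 13.4, 14.3 and 12 TPM for AT4G16880 and 18.9, 16.9 and 4.89 TPM for AT5G41109 in white light. The plant defensin genes, whose coding sequences are near-identical, appeared several times, and their reads may be shared, so values of single genes are uncertain. PDF1.2b lost its call without shade library 3 (highest limma adjusted p = 0.0503), and PDF1.3 lost its call in 6 of 16 alternatives (highest limma adjusted p = 0.117). PDF1.2 (AT5G44420) was at 12.8, 0.33 and 0.25 TPM in shade, against 39.5, 38.7 and 29.1 TPM in white light and PDF1.2c (AT5G44430) at 2.88, 0 and 0 TPM in shade, against 23.6, 18.9 and 20.6 TPM in white light. For both, shade library 1 kept more transcript than shade libraries 2 and 3.

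Of the 13 HD-ZIP II and PIF genes, 5 rose and 3 fell (3.45% and 6.60% over all tested genes), with a median log2 change of -0.06. HD-ZIP II genes encode homeodomain repressors that phytochrome controls rapidly, and 4 of the 7 rose and 1 fell. ATHB2 (AT4G16780), the classic shade marker, reached 97.4, 97.8 and 91.1 TPM in shade, against 6.91, 8.94 and 5.8 TPM in white light (log2 change 3.57, SE 0.16, limma adjusted p = 1.74e-07), with the shade libraries nearly identical. HAT2 (AT5G47370) was at 109, 73.3 and 75.8 TPM in shade, against 16.9, 16.1 and 20.1 TPM in white light (log2 change 2.20, SE 0.15, limma adjusted p = 6.99e-06), and HAT1 rose less (log2 0.74, limma adjusted p = 0.00849). ATHB4 was at log2 0.67 without a call (limma adjusted p = 0.0513), and HAT9 at -0.40 (0.214). The rise of HAT3 lost its call without shade library 3 (highest limma adjusted p = 0.0752). The member that fell was HAT22 (AT4G37790) (log2 -0.53, limma adjusted p = 0.0186), and its call ended in 4 of 16 alternatives, among them the fits without white-light library 2 or shade library 2 or 3 (highest limma adjusted p = 0.0844). The PIF genes themselves went apart. PIF7 (AT5G61270), the PIF most needed for the shade response, fell, with 5.73, 5.58 and 6.2 TPM in shade, against 27.4, 30.8 and 25.3 TPM in white light (log2 change -2.07, SE 0.14, limma adjusted p = 4.6e-06). PIF3 (AT1G09530) was at 9.55, 15.5 and 14.1 TPM in shade, against 6.62, 6.83 and 6.08 TPM in white light (log2 change 0.88, SE 0.19, limma adjusted p = 0.0119), and its call ended without shade library 2 or 3 (highest limma adjusted p = 0.063). PIF4 and PIF5, which promote elongation, had log2 changes of -0.30 and -0.06 (limma adjusted p = 0.566 and 0.852). The counts for these 13 genes were 4 rises and 1 fall without shade library 2, and 3 rises and 1 fall without shade library 3.

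The atypical and growth-related bHLH genes were the list with the highest median, at log2 1.84 over 16 tested of 18 members. Of these genes 14 rose, against 3.45% of all tested genes, and none fell. They include proteins that bind no DNA and hold other bHLH factors in check. HFR1 (AT1G02340), PAR1 (AT2G42870) and PIL1 (AT2G46970), brakes or modulators of the response, all rose. HFR1 measured 56, 47.8 and 52.1 TPM in shade, against 5.89, 6.38 and 9.41 TPM in white light (log2 change 2.71, SE 0.18, limma adjusted p = 4.36e-06), and PAR1 measured 40.3, 91 and 89.3 TPM in shade, against 8.13, 5.39 and 11.8 TPM in white light (log2 change 2.95, SE 0.35, limma adjusted p = 0.000312). PIL1 stood at 23, 24.3 and 29.7 TPM in shade, against 0.79, 0.89 and 0.45 TPM in white light. In PAR1, shade library 1 was the lowest of the shade libraries, and in HFR1 and PIL1 the shade libraries were alike. The growth promoters BEE1 (AT1G18400) (48.7, 82.4 and 75.7 TPM in shade, against 8.23, 5.39 and 7.38 TPM in white light) and PRE6 (AT1G26945) (81.1, 132 and 129 TPM in shade, against 19.9, 16.3 and 21.4 TPM in white light) rose too. HEC1 (AT5G67060), a regulator known for its role in the gynoecium and the shoot meristem, was at 4.72, 10.5 and 12.9 TPM in shade, against 1.06, 1.16 and 0.93 TPM in white light (log2 change 2.25, SE 0.28, limma adjusted p = 0.000427), and BHLH87 (AT3G21330), a bHLH gene about which less is known, was at 54.8, 70.3 and 77.3 TPM in shade, against 1.66, 1.23 and 2.06 TPM in white light (log2 change 4.69, SE 0.18, limma adjusted p = 5.71e-08). CIB1 (AT4G34530), a cryptochrome 2 partner that promotes flowering, was at 21.2, 36.7 and 38.1 TPM in shade, against 5.46, 7.94 and 5.58 TPM in white light, and its call ended only with a pseudocount of 0.1 (limma adjusted p = 0.175). The antagonist IBH1 (AT2G43060) of the growth-promoting bHLH proteins rose as well (log2 1.15, limma adjusted p = 0.00193). BEE2 and PRE4 had no call, at log2 0.30 and -0.41. Between 12 and 14 members rose in each fit with a library left out.

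**Figure D2:**
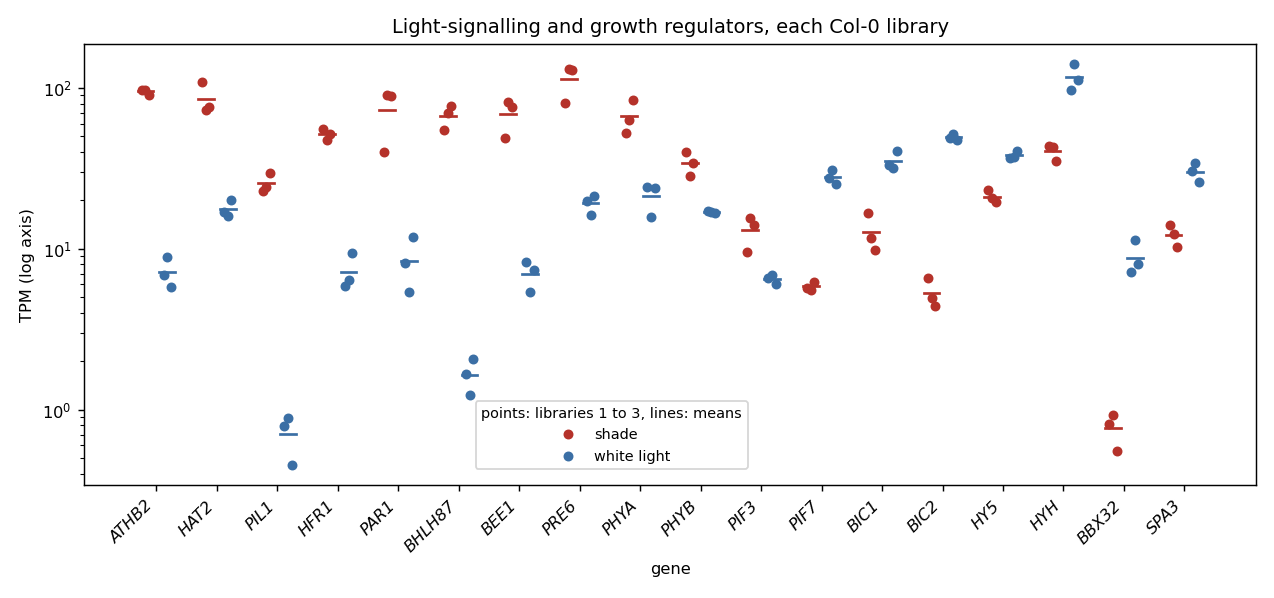
TPM on a log axis of 18 light-signalling and growth regulators in each Col-0 library, with shade in red at the left and white light in blue at the right of each gene; points are libraries and lines are means. ATHB2, HAT2, PIL1, HFR1, PAR1, BHLH87, BEE1, PRE6, PHYA, PHYB and PIF3 lie higher in shade, and PIF7, BIC1, BIC2, HY5, HYH, BBX32 and SPA3 lie lower. Only called genes were chosen for display, and in none of them do the lights overlap. The same holds for 1963 of all 1973 called genes and for 28.0% of all tested genes.

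Photoreceptor genes and their partners split, with 5 rises and 6 falls among 21 genes and a median log2 change of -0.02. Over all tested genes, 3.45% rose and 6.60% fell. PHYA (AT1G09570), the far-red sensor that is scarce in light-grown plants, stood at 52.5, 63.6 and 84.7 TPM in shade, against 24.1, 15.7 and 24 TPM in white light (log2 change 1.61, SE 0.25, limma adjusted p = 0.00175). PHYB (AT2G18790), the main shade sensor, stood at 40.3, 28.3 and 34.4 TPM in shade, against 17.2, 16.9 and 16.6 TPM in white light (log2 change 0.97, SE 0.23, limma adjusted p = 0.0197), and its call ended without white-light library 1 or 2 or without shade library 1 or 3 (highest limma adjusted p = 0.0744). In both phytochromes the shade libraries lay above white light. PHYE (AT4G18130) fell, with 7.83, 6.96 and 7.4 TPM in shade, against 12.8, 14.9 and 13.2 TPM in white light (log2 change -0.80, SE 0.18, limma adjusted p = 0.0144), and its call ended without white-light library 2 or shade library 2 or 3 (highest limma adjusted p = 0.0613). PHYC and PHYD had log2 changes of -0.02 and -0.03 and no call. FHL (AT5G02200), which carries phytochrome A into the nucleus, was at 4.93, 7.01 and 9.79 TPM in shade, against 0.81, 1.38 and 0.99 TPM in white light (log2 change 1.97, SE 0.23, limma adjusted p = 0.000333), and its relative FHY1 was at log2 0.10 without a call. The phytochrome kinase substrate genes PKS2 (AT1G14280) and PKS4 (AT5G04190), which act in phototropism, were at 48.8, 53.5 and 55 TPM in shade, against 21.7, 24 and 22.9 TPM in white light for PKS2 and 12.5, 16.1 and 18.8 TPM in shade, against 3.13, 2.9 and 3.68 TPM in white light for PKS4. PKS1 did not pass the test (log2 -0.19, limma adjusted p = 0.534). Both inhibitors of cryptochromes fell: BIC1 (AT3G52740) was at 16.7, 11.6 and 9.9 TPM in shade, against 33, 31.8 and 40.8 TPM in white light (log2 change -1.42, SE 0.19, limma adjusted p = 0.000809), and BIC2 (AT3G44450) was at 6.59, 4.98 and 4.4 TPM in shade, against 48.9, 51.6 and 47.5 TPM in white light (log2 change -3.01, SE 0.20, limma adjusted p = 5.34e-06). RUP2 (AT5G23730), a repressor of the UV-B receptor UVR8, fell (log2 -1.01, limma adjusted p = 0.00053), while UVR8 itself was at log2 -0.08 with no call. The cryptochrome gene CRY2 and the phototropin gene PHOT2 were also among the falls. Over the fits their log2 changes were between -0.44 and -0.32 for CRY2 and between -1.27 and -0.84 for PHOT2. Their calls ended in 10 and 5 of 16 alternatives (highest limma adjusted p = 0.125 and 0.126). The counts were 4 rises and 3 falls without white-light library 2 or shade library 3, and 5 rises and 3 falls without shade library 2.

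Genes of the HY5 and COP1-SPA modules mostly fell. Of 21 tested of 22 members, 13 fell and 1 rose (6.60% and 3.45% over all tested genes), with a median log2 change of -0.83. HY5 (AT5G11260), a bZIP factor that promotes de-etiolation, measured 23.1, 20.6 and 19.6 TPM in shade, against 36.7, 37.3 and 40.4 TPM in white light (log2 change -0.83, SE 0.19, limma adjusted p = 0.0147), and its call ended without shade library 2 or 3 (highest limma adjusted p = 0.0705). Its homologue HYH (AT3G17609) measured 43.9, 43 and 35.4 TPM in shade, against 96.7, 141 and 112 TPM in white light (log2 change -1.48, SE 0.14, limma adjusted p = 7.89e-05). COP1 and SPA proteins form the ubiquitin ligase that degrades HY5, and 3 of the 4 SPA genes fell. SPA3 (AT3G15354) was at 14.1, 12.3 and 10.2 TPM in shade, against 30.4, 34.2 and 26.1 TPM in white light (log2 change -1.25, SE 0.14, limma adjusted p = 0.000294), and SPA4 fell by less (log2 -0.91, limma adjusted p = 0.00373). SPA1 was the other member that fell (log2 -0.65, limma adjusted p = 0.0161), and its call ended without white-light library 1 or 2 or shade library 2 or 3 (highest limma adjusted p = 0.0709). SPA2 was at log2 -0.50 with no call (limma adjusted p = 0.621). Of 12 tested of 13 B-box genes, 7 fell and 1 rose. The microprotein genes BBX30 (AT4G15248) and BBX31 (AT3G21890) were at 1.93, 2.89 and 1.2 TPM in shade, against 10.4, 11.2 and 16.4 TPM in white light for BBX30 and 1.94, 1.45 and 1.59 TPM in shade, against 7.15, 11.4 and 8.78 TPM in white light for BBX31. BBX32 (AT3G21150), a repressor of light signalling, was at 0.81, 0.93 and 0.55 TPM in shade, against 7.2, 11.3 and 7.99 TPM in white light (log2 change -2.46, SE 0.17, limma adjusted p = 7.38e-06), and BBX18 (AT2G21320) was at 5.39, 5.57 and 5.19 TPM in shade, against 20, 23.6 and 20.6 TPM in white light. The shade values of these B-box genes were all below the lowest white-light value. BBX20 and BBX21, which promote de-etiolation, had log2 changes of 0.55 and 0.57 without a call. The single B-box rise, BBX28 (log2 0.87, limma adjusted p = 0.0416), lost its call without white-light library 1 or 2 or shade library 2 or 3 and with TMM or quantile scaling (highest limma adjusted p = 0.177).

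Genes of auxin synthesis and handling were called higher more often than lower. Of 27 tested of 30 genes of synthesis, conjugation and transport, 13 rose and 1 fell, with a median log2 change of 0.63. Over all tested genes, 3.45% rose and 6.60% fell. The YUC enzymes make auxin from indole-3-pyruvate, and 4 of the 6 tested YUC genes rose. YUC8 (AT4G28720) stood at 24.5, 29.6 and 30.9 TPM in shade, against 2.27, 1.73 and 1.57 TPM in white light (log2 change 3.36, SE 0.15, limma adjusted p = 1.66e-07) and YUC9 (AT1G04180) at 11.3, 9.08 and 9.99 TPM in shade, against 0.61, 1.72 and 1.38 TPM in white light (log2 change 2.34, SE 0.18, limma adjusted p = 1.68e-05). The shade libraries of both were several times above white light. YUC2 and YUC5 rose by less (log2 1.23, limma adjusted p = 0.000599, and log2 1.16, limma adjusted p = 0.00288). TAA1, which supplies the substrate, was at log2 -0.64 without a call (limma adjusted p = 0.103). The GH3 enzymes conjugate auxin to amino acids, and 5 of 6 tested genes rose. GH3.3 (AT2G23170) reached 86.7, 70.1 and 85.9 TPM in shade, against 3.75, 4.64 and 3.92 TPM in white light (limma adjusted p = 1.74e-07), and GH3.5 (AT4G27260) reached 77.8, 76.3 and 88.4 TPM in shade, against 17.2, 13.9 and 20.6 TPM in white light (log2 change 2.18, SE 0.18, limma adjusted p = 2.1e-05). The rise of GH3.6 lost its call without shade library 3 (highest limma adjusted p = 0.0607). GH3.17 stood aside, at log2 0.15 with no call. Among carriers, PIN3 (AT1G70940), which moves auxin sideways in the hypocotyl, was at 123, 99.4 and 97.6 TPM in shade, against 44.6, 52.9 and 39.5 TPM in white light, and PIN7 (AT1G23080) was at 77.7, 88 and 102 TPM in shade, against 40, 35.2 and 33.9 TPM in white light (log2 change 1.27, SE 0.19, limma adjusted p = 0.00126). The influx carrier gene AUX1 (AT2G38120) rose (log2 0.91, limma adjusted p = 0.00406), whereas LAX1 fell (log2 -0.56, limma adjusted p = 0.0487) in a call that ended in 11 of 16 alternatives, among them every fit with a Col-0 library left out. Without shade library 3 the counts were 11 rises and 0 falls, and without shade library 1 they were 12 rises and 2 falls.

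Aux/IAA genes are early auxin targets that encode repressors of auxin signalling. Of the 27, 16 rose and 0 fell (3.45% and 6.60% over all tested genes), and the median log2 change was 0.64. IAA19 (AT3G15540) stood at 113, 135 and 159 TPM in shade, against 5.18, 4.44 and 6.74 TPM in white light (log2 change 4.41, SE 0.20, limma adjusted p = 1.74e-07), and IAA2 (AT3G23030), the most abundant of those that rose, at 434, 538 and 495 TPM in shade, against 74.9, 70.6 and 87.7 TPM in white light (log2 change 2.64, SE 0.15, limma adjusted p = 1.2e-06). IAA5 (AT1G15580) and IAA6 (AT1G52830) were nearly absent in white light. IAA5 was at 18.4, 16.4 and 17.1 TPM in shade, against 0.42, 0.5 and 0.62 TPM in white light and IAA6 at 18.3, 10.7 and 11.9 TPM in shade, against 0.59, 0.09 and 0.41 TPM in white light, with no overlap in either. IAA30 and IAA34, which lack part of the usual repressor structure, averaged 12.9 ± 2.32 TPM in shade and 1.59 ± 0.77 TPM in white light for IAA30 and 11.8 ± 5.84 TPM in shade and 1.06 ± 0.575 TPM in white light for IAA34 (SD, n = 3 each), and both rose. In IAA34, shade library 1 was at 5.03 TPM and the other shade libraries at 14.9 and 15.4 TPM. Within the family the changes were unequal: IAA7 rose by 1.23 and IAA3 by 1.17, while IAA28, IAA18 and IAA12 had log2 changes of -0.53, -0.43 and -0.33 and no call. Without shade library 1 the counts were 15 rises and 1 fall. Auxin receptors and response factors had 2 rises and 0 falls among 18 genes and a median of -0.12, a share of calls near the 10.0% over all tested genes. ARF18 (AT3G61830) rose (log2 0.89, limma adjusted p = 0.00224), and AFB1 rose with a call that ended without white-light library 2 or shade library 3 (log2 0.69, limma adjusted p = 0.0168). Without either of those libraries the count was 1 rise. The receptor gene TIR1 was at log2 -0.42 and the activators ARF7 and ARF19 at -0.09 and 0.22, none of them called.

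The SAUR family, small auxin-induced proteins of which the best known acidify the wall by activating proton pumps, had 27 rises and 8 falls among 63 tested of 80 members, and a median log2 change of 0.71. Over all tested genes, 3.45% rose and 6.60% fell. All 6 genes from SAUR19 to SAUR24, a cluster of near-identical copies, rose. SAUR22 (AT5G18050) stood at 28.3, 31.4 and 33.6 TPM in shade, against 1.62, 1.72 and 2.21 TPM in white light (limma adjusted p = 9.46e-06), and SAUR19 (AT5G18010) at 14, 14.3 and 13.1 TPM in shade, against 1.51, 0.42 and 1.44 TPM in white light (log2 change 2.84, SE 0.24, limma adjusted p = 3.62e-05). Their reads may be shared with each other, so values of single genes are uncertain. In the cluster from SAUR61 to SAUR68, 6 of 8 rose, led by AT1G29490 (annotated SAUR68), with 8.98, 13.9 and 22.5 TPM in shade, against 0, 0.13 and 0.57 TPM in white light (log2 change 3.65, SE 0.33, limma adjusted p = 5.4e-05). SAUR64, of the same cluster, lost its call without white-light library 2 or 3 or shade library 1 or 2 (highest limma adjusted p = 0.0714). SAUR1 (AT4G34770) and SAUR10 (AT2G18010) rose in the same way, with SAUR1 at 14.8, 48.2 and 44.5 TPM in shade, against 2.68, 2.8 and 2.95 TPM in white light and SAUR10 at 12.5, 16 and 11.3 TPM in shade, against 1.58, 0.43 and 1.67 TPM in white light. For SAUR1, shade library 1 was below the other shade libraries. The falls were as clear for some members. SAUR14 (AT4G38840) was at 32.3, 27.9 and 25.8 TPM in shade, against 76, 105 and 81.5 TPM in white light (log2 change -1.57, SE 0.18, limma adjusted p = 0.000284), SAUR6 (AT2G21210) at 55.7, 54.7 and 42.9 TPM in shade, against 122, 159 and 119.8 TPM in white light (log2 change -1.37, SE 0.19, limma adjusted p = 0.000821) and SAUR60 (AT1G20470) at 7.88, 6.94 and 5.5 TPM in shade, against 17.1, 25 and 16 TPM in white light. In white light SAUR6 and SAUR14 were well above SAUR22, and in shade SAUR14 was level with it on the TPM scale, which is per length. The summed SAUR level was 1179.8, 1122 and 1069 TPM in shade, against 873, 952 and 903 TPM in white light. Leaving out a library gave between 24 and 29 rises and between 5 and 9 falls; without white-light library 2 or shade library 3 they were 24 and 5.

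Other growth hormones gave shorter lists of changes, read against the 3.45% of all tested genes that rose and the 6.60% that fell. Of 16 brassinosteroid genes, 4 rose and 1 fell (median log2 change 0.17). The synthesis genes CPD (AT5G05690) (log2 0.89, limma adjusted p = 0.00195) and BR6OX2 (AT3G30180) (log2 0.81, limma adjusted p = 0.00964) rose, with CPD at 121, 119 and 117 TPM in shade, against 70.1, 55.4 and 67.7 TPM in white light. DWF4, the rate-limiting enzyme gene, was at log2 0.13 and the receptor gene BRI1 at 0.80, without a call. The counts were 2 rises and 0 falls without white-light library 2, white-light library 3 or shade library 3, 2 rises and 1 fall without shade library 1, and 4 rises and 0 falls without shade library 2. Of 18 tested of 19 gibberellin genes, 5 rose and 2 fell (median 0.07). Both tested GA20OX genes, of a late synthesis step, rose. GA20OX1 (AT4G25420) was at 7.91, 3.39 and 5.42 TPM in shade, against 0.68, 0.38 and 0.93 TPM in white light (log2 change 1.94, SE 0.25, limma adjusted p = 0.000601) and GA20OX2 (AT5G51810) at 11.8, 8.98 and 10.3 TPM in shade, against 1.27, 0.61 and 1.4 TPM in white light (log2 change 2.46, SE 0.20, limma adjusted p = 2.76e-05). The breakdown enzyme gene GA2OX6 (AT1G02400) rose as well, averaging 39.3 ± 10.7 TPM in shade and 6.9 ± 2.65 TPM in white light (SD, n = 3 each), and GA3OX2 (AT1G80340), of the final synthesis step, fell (log2 -1.29, limma adjusted p = 0.0061). The DELLA repressor gene GAI (AT1G14920) was at 41.8, 42.8 and 48.1 TPM in shade, against 17.9, 19.3 and 15.8 TPM in white light (log2 change 1.28, SE 0.15, limma adjusted p = 0.000324), with shade above white light in every library, while its close relative RGA was at log2 0.03 with no call. Without white-light library 1 there were 4 rises and 1 fall.

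Ethylene and cytokinin genes had 9 rises and 2 falls among 30 tested of 35 (median log2 change 0.39). Over all tested genes, 3.45% rose and 6.60% fell. ACS enzymes make the ethylene precursor, and 3 of 4 tested ACS genes rose. ACS8 (AT4G37770) reached 23, 20.8 and 25.7 TPM in shade, against 0.41, 0.35 and 0.26 TPM in white light (log2 change 4.17, SE 0.13, limma adjusted p = 1.56e-08), and ACS4 (AT2G22810) reached 10.9, 4.95 and 8.15 TPM in shade, against 0.66, 0 and 0.49 TPM in white light (log2 change 2.68, SE 0.27, limma adjusted p = 0.000102). White light gave almost no transcript of either. The receptor genes ERS1 (AT2G40940) (log2 1.22, limma adjusted p = 0.00113) and ETR2 (AT3G23150) (log2 1.29, limma adjusted p = 0.00639), which repress signalling in the absence of ethylene, rose with EBF2 (AT5G25350), at 55.1, 87 and 87.2 TPM in shade, against 23.8, 18.8 and 25.8 TPM in white light. CKX5 (AT1G75450), a cytokinin oxidase gene, was at 4.17, 5.95 and 6.44 TPM in shade, against 1.67, 1.62 and 1.34 TPM in white light (log2 change 1.34, SE 0.17, limma adjusted p = 0.000429). Of 8 type-A response regulator genes of cytokinin signalling, ARR4 (AT1G10470) alone was called (log2 -0.88, limma adjusted p = 0.00604), and the others had log2 changes between -0.70 and 0.40. The counts for the list were 7 rises and 1 fall without white-light library 2 or shade library 3, 8 and 1 without white-light library 3, 9 and 1 without shade library 2, and 10 and 4 without shade library 1. In the jasmonate list ST2A, described above, stood apart. With it, the 24 tested of 27 genes held 2 rises and 3 falls (3.45% and 6.60% over all tested genes), and the list median was -0.27. JAZ9 (AT1G70700), a repressor of jasmonate responses, fell, with 47, 33.5 and 29.3 TPM in shade, against 73.2, 64.2 and 67.1 TPM in white light (log2 change -0.91, SE 0.18, limma adjusted p = 0.00761). The synthesis genes AOS and OPR3 were at log2 -0.20 and -0.15 and MYC2 at -0.42, with no call. Leaving out single libraries gave between 1 and 2 rises and between 1 and 5 falls for the jasmonate list, with 5 falls without shade library 1 and 1 fall without shade library 2 or 3.

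Cell wall enzymes that loosen or rebuild xyloglucan, the XTH family, showed 7 rises and 2 falls among 21 tested of 22 members (3.45% and 6.60% over all tested genes), with a median log2 change of 0.57. XTH4 (AT2G06850), the most abundant of those called, was at 677, 635 and 751 TPM in shade, against 309, 115 and 291 TPM in white light (log2 change 1.65, SE 0.30, limma adjusted p = 0.00497), with white-light library 2 lowest. XTH22 (AT5G57560) was at 100.4, 109 and 114 TPM in shade, against 15.2, 13.9 and 17.4 TPM in white light (log2 change 2.72, SE 0.17, limma adjusted p = 3.58e-06), XTH15 (AT4G14130) at 54.3, 70.5 and 94.3 TPM in shade, against 12.4, 4.95 and 15.1 TPM in white light (log2 change 2.73, SE 0.34, limma adjusted p = 0.000429) and XTH33 (AT1G10550) at 17.7, 27.1 and 26.9 TPM in shade, against 1.45, 1.4 and 1.83 TPM in white light (log2 change 3.26, SE 0.17, limma adjusted p = 5.66e-07). The groups were separate in each. XTH31 (AT3G44990) moved the other way, with 44.1, 27.1 and 38.2 TPM in shade, against 86, 73.8 and 71.6 TPM in white light (log2 change -1.08, SE 0.17, limma adjusted p = 0.00206). Summed XTH levels were 1948, 1789 and 2014 TPM in shade, against 1346, 851 and 1358 TPM in white light. Without white-light library 3 there were 10 rises and 1 fall, and without any other single library except shade library 1 there were 6 rises and 1 fall. Expansins, proteins that loosen walls without cutting them, had 4 rises and 3 falls among 18 (median -0.12), against 3.45% and 6.60% of all tested genes. EXPA16 (AT3G55500) was at 18.3, 8.16 and 7.82 TPM in shade, against 1.79, 1.39 and 0.82 TPM in white light (log2 change 2.33, SE 0.37, limma adjusted p = 0.00195), and the expansin-like genes EXLA1 (AT3G45970) and EXLA2 (AT4G38400) rose (log2 1.62, limma adjusted p = 0.000381, and log2 1.98, limma adjusted p = 1.6e-05). EXLA2 measured 37, 35.1 and 37.1 TPM in shade, against 8.49, 7.15 and 10.1 TPM in white light. The fourth rise, EXPA11 (AT1G20190) (log2 0.70, limma adjusted p = 0.0465), lost its call in 9 of 16 alternatives, among them the fits without white-light library 1 or 2 or shade library 2 or 3 (highest limma adjusted p = 0.189). The falls were in EXPA2, EXPA3 and EXPA5, with log2 changes of -1.36, -0.56 and -0.96 (limma adjusted p = 0.0329, 0.0103 and 0.0143), and the calls ended in 4 of 15, 1 of 16 and 3 of 16 alternatives. Without white-light library 1 or shade library 2 the counts were 3 rises and 1 fall, and without shade library 3 they were 3 rises and 0 falls.

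Of 26 clock genes 11 fell and 1 rose (6.60% and 3.45% over all tested genes), and the median log2 change was -0.63. ELF4 (AT2G40080), a member of the evening complex, was at 49, 47.8 and 47.8 TPM in shade, against 127, 115 and 118 TPM in white light (log2 change -1.30, SE 0.16, limma adjusted p = 0.000446). FKF1 (AT1G68050), a blue-light receptor F-box gene that acts in photoperiodic flowering, was at 5.94, 5.9 and 6.17 TPM in shade, against 16.2, 16.9 and 12.8 TPM in white light (log2 change -1.21, SE 0.16, limma adjusted p = 0.000587), and PRR5 (AT5G24470) was at 10.5, 12 and 11.3 TPM in shade, against 28, 20.1 and 23.5 TPM in white light (log2 change -1.01, SE 0.15, limma adjusted p = 0.00162). Values within each light were tight in ELF4 and FKF1, and no library overlapped. RVE1 (AT5G17300), which links the clock to auxin synthesis, was at 22.6, 12.7 and 11.6 TPM in shade, against 39.7, 39.6 and 42.7 TPM in white light, with shade library 1 above the other shade libraries. GI, ELF3 and LKP2 had log2 changes of -0.21, -0.20 and -0.22 with no call. Many clock calls were near the threshold: the counts were 0 rises and 8 falls without white-light library 1, 1 and 7 without white-light library 2 or 3, and 0 and 6 without shade library 2 or 3. The labels give no time of day for the sampling of either light. The flowering list, with CONSTANS-like and CDF genes, had 2 rises and 5 falls among 18 tested of 20 (median -0.54), against the same shares. COL5 (AT5G57660) rose, at 128, 153 and 166 TPM in shade, against 70.4, 39.8 and 79.7 TPM in white light (log2 change 1.28, SE 0.22, limma adjusted p = 0.00301), and CDF5 (AT1G69570) rose, at 8.38, 10.8 and 8.79 TPM in shade, against 2.19, 1.63 and 2.44 TPM in white light (log2 change 1.74, SE 0.23, limma adjusted p = 0.000592). CDF1 fell (log2 -0.82, limma adjusted p = 0.00689). The floral inducer FT was at log2 -0.64 and CO at 0.36, both without a call. The falls in this list were 10 without shade library 1, 3 without white-light library 1, 2 without white-light library 2 and 1 without shade library 2 or 3.

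**Figure D3:**
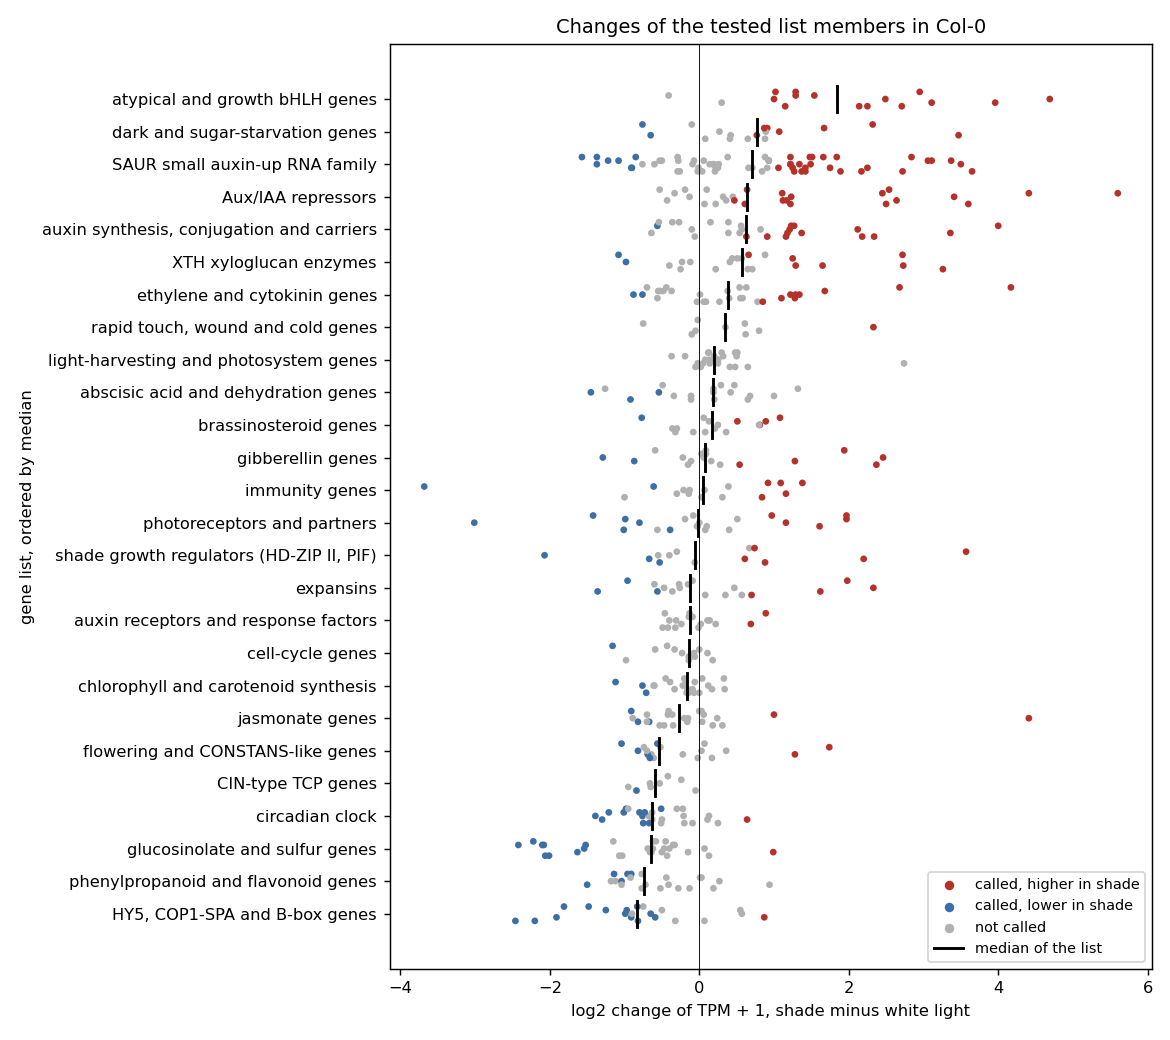
Log2 change of TPM + 1, shade minus white light, of every tested member of 26 gene lists, one row per list ordered by its median (black bar); red points were called higher in shade, blue points lower and grey points were not called. The growth bHLH row stands furthest to the right with a median of 1.84, and the HY5, COP1-SPA and B-box row furthest to the left with -0.83.

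Genes of sulfur assimilation and glucosinolates had 9 falls and 1 rise among 29 tested of 30 (6.60% and 3.45% over all tested genes), with a median log2 change of -0.64. The falls were in genes of sulfate reduction and sulfur starvation and in the glucosinolate regulator genes MYB28 and MYB29. The call of MYB29 ended without white-light library 1 or 2 or shade library 2 or 3 (highest limma adjusted p = 0.13). All 3 APR genes, which encode the reductases that set the rate of sulfate reduction, fell. APR3 (AT4G21990) stood at 45.2, 19.2 and 21.6 TPM in shade, against 142, 191 and 116 TPM in white light (log2 change -2.42, SE 0.36, limma adjusted p = 0.00143) and APR2 (AT1G62180) at 39.9, 18.1 and 20.6 TPM in shade, against 107, 162 and 74.9 TPM in white light (log2 change -2.10, SE 0.30, limma adjusted p = 0.00114). In both, shade library 1 was above shade libraries 2 and 3 and below every white-light library. APR1 (AT4G04610) was at 35.1, 9.33 and 13.1 TPM in shade, against 79.2, 85.4 and 54 TPM in white light (log2 change -2.06, SE 0.50, limma adjusted p = 0.0211), and its call ended without white-light library 1 or 2 or shade library 2 or 3 (highest limma adjusted p = 0.0936). LSU2 (AT5G24660) was at 11.2, 4.92 and 6.04 TPM in shade, against 33.1, 48 and 29.9 TPM in white light (log2 change -2.22, SE 0.40, limma adjusted p = 0.00461), and GGCT2;1 (AT5G26220), which recycles glutathione, was at 2.87, 1.17 and 2.01 TPM in shade, against 8.43, 17.6 and 8.43 TPM in white light (log2 change -2.01, SE 0.40, limma adjusted p = 0.00823). MYB28 (AT5G61420), the main activator of aliphatic glucosinolate genes, was at 28.1, 12.6 and 12.1 TPM in shade, against 46.2, 67.8 and 36.9 TPM in white light (log2 change -1.52, SE 0.29, limma adjusted p = 0.00655). Of the 12 enzyme genes of glucosinolate synthesis none was called, and their median was -0.54. Without shade library 1 the list had 16 falls and 1 rise, and without white-light library 2 or shade library 2 it had 7 falls and 0 rises.

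Phenylpropanoid and flavonoid genes had 5 falls and 0 rises among 22 tested of 24 (median log2 change -0.74), against 6.60% and 3.45% of all tested genes. MYB12 (AT2G47460), an activator of flavonol synthesis, was at 3.7, 2.88 and 4.36 TPM in shade, against 8.55, 7.24 and 9.71 TPM in white light (log2 change -1.04, SE 0.17, limma adjusted p = 0.00289), and SNG1 (AT2G22990), which makes the sunscreen sinapoylmalate, was at 109.7, 116 and 119.8 TPM in shade, against 221, 214 and 241 TPM in white light (log2 change -0.96, SE 0.14, limma adjusted p = 0.00114). Chalcone synthase, CHS, the entry enzyme of flavonoid synthesis, measured 273, 113 and 125 TPM in shade, against 380.4, 204 and 338 TPM in white light and was not called (log2 -0.92, limma adjusted p = 0.161). Shade library 1 was within the white-light range for CHS, and shade libraries 2 and 3 were below it. Summed over the list, shade library 1 held 1148 TPM, against 608 and 684 TPM in shade libraries 2 and 3 and between 1119 and 1479.8 TPM in white light. The falls numbered 11 without shade library 1, 3 without shade library 2 or white-light library 1, 2 without shade library 3, 4 with 1 rise without white-light library 2, and 9 with TMM or quantile scaling. Of 23 tested genes of chlorophyll and carotenoid synthesis (24 members, median -0.17), 3 fell and 0 rose, a share of calls near the 10.0% over all tested genes. The carotenoid genes LCY1 (AT3G10230) (log2 -0.76, limma adjusted p = 0.00642) and BCH1 (AT4G25700) (log2 -0.71, limma adjusted p = 0.00298) kept their calls in every alternative, and CCD4 lost its call in 7 of 16. LCY1, lycopene cyclase, measured 45.8, 36.1 and 36.3 TPM in shade, against 67.3, 74.8 and 60.2 TPM in white light. The chlorophyll genes CHLH, GUN4 and PORC were at log2 -0.22, -0.14 and -0.07 with no call.

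The list of light-harvesting and photosystem genes had 0 calls among 25 by limma, against 10.0% of all tested genes, with 6 at an unadjusted p under 0.05 and a median log2 change of 0.20. Over all tested genes 4470 were at an unadjusted p under 0.05. LHCB1.5, one of several near-identical copies, measured 2585, 5316 and 5626 TPM in shade, against 2154, 253 and 469 TPM in white light (log2 2.74, limma adjusted p = 0.0627), and the values within white light were far apart. Summed levels of the list were 56478, 84216 and 86402 TPM in shade, against 67715, 51582 and 67414 TPM in white light, so the lights overlapped. Without shade library 1 or with quantile scaling there were 2 rises, and without white-light library 1 there was 1. Photosystem genes outside the list were called: PSAD-2 (AT1G03130), a photosystem I subunit gene, rose (log2 0.48, limma adjusted p = 0.021), with 1275, 1563 and 1589.8 TPM in shade, against 1087, 983 and 1084 TPM in white light, and the chloroplast gene PSAJ (ATCG00630) fell (log2 -2.07, limma adjusted p = 0.0376), with 27.3, 111 and 23.2 TPM in shade, against 132, 204 and 208 TPM in white light. Both were chosen after their values were seen. The call of PSAD-2 ended without white-light library 2 or shade library 2 or 3, and that of PSAJ without any of the white-light libraries or shade library 1 or 3 (highest limma adjusted p = 0.112 and 0.167). Genes induced by darkness and sugar shortage were summed at 1985, 3133 and 3046 TPM in shade, against 1556, 1002 and 1840.5 TPM in white light. Of 17 tested of 18, 7 rose and 2 fell (median 0.77), against 3.45% and 6.60% of all tested genes. DIN1 (AT4G35770) was at 159, 347 and 324 TPM in shade, against 27, 11 and 38.8 TPM in white light (log2 change 3.47, SE 0.49, limma adjusted p = 0.000958), and DIN6 (AT3G47340), an asparagine synthetase gene, at 20.5, 37.6 and 35.5 TPM in shade, against 6.29, 2.63 and 8.13 TPM in white light (log2 change 2.32, SE 0.39, limma adjusted p = 0.00272). In both, shade library 1 was lower than the other shade libraries and white-light library 2 lower than the other white-light libraries. GBF5 (AT2G18160), a bZIP gene, fell (log2 -0.65, limma adjusted p = 0.00601). The counts were 3 rises and 1 fall without white-light library 1, 2 and 1 without white-light library 2 or shade library 2, 2 and 2 without shade library 3, and 8 and 1 without shade library 1.

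**Figure D4:**
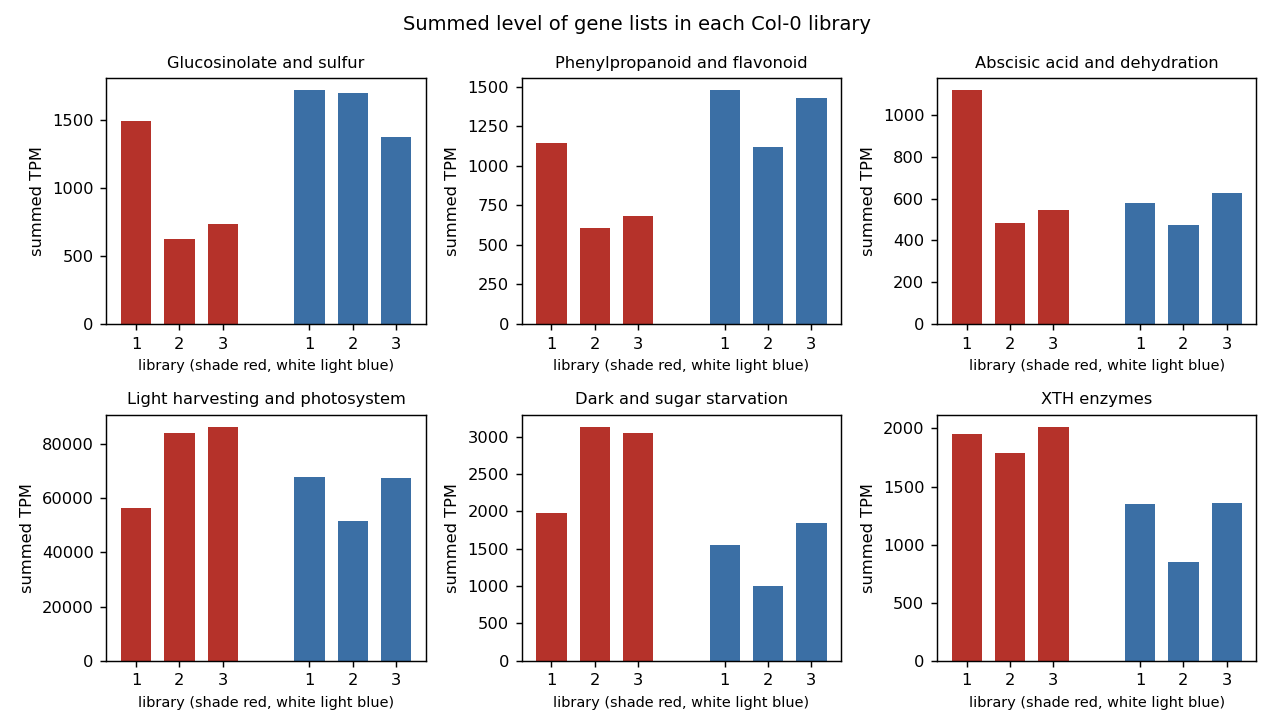
Summed TPM of 6 gene lists in each Col-0 library, shade in red at the left and white light in blue at the right, with bars starting at 0. Shade library 1 is high in the glucosinolate and sulfur (1494 TPM), flavonoid (1148 TPM) and abscisic acid (1119.8 TPM) lists and low in light harvesting, and white-light library 2 is low in starvation (1002 TPM) and XTH genes (851 TPM).

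Stress and defence lists are read against the 10.0% of all tested genes that were called, 3.45% higher and 6.60% lower in shade. The abscisic acid and dehydration list reached a sum of 1119.8 TPM in shade library 1, against 482 and 545 TPM in shade libraries 2 and 3 and between 472 and 628 TPM in white light. Of 18 tested of 20, 3 fell and 0 rose (median log2 change 0.19). The falls were 5 without shade library 1 (median -0.24), 1 without shade library 2 or white-light library 2, and 0 without shade library 3. COR15A, a cold- and drought-induced gene, measured 115, 4.91 and 9.28 TPM in shade, against 6.08, 10.4 and 4.56 TPM in white light and was not called (log2 1.32, limma adjusted p = 0.64). Its high mean in shade came from shade library 1. Immunity genes had 5 rises and 2 falls among 16 tested of 22 (median 0.05). WRKY18 (AT4G31800) was at 20.3, 17.9 and 16.3 TPM in shade, against 8.61, 6.7 and 7.49 TPM in white light (log2 change 1.16, SE 0.15, limma adjusted p = 0.000641), FLS2 (AT5G46330), the receptor of bacterial flagellin, at 3.28, 5.47 and 5.2 TPM in shade, against 1.22, 0.8 and 1.44 TPM in white light (log2 change 1.38, SE 0.21, limma adjusted p = 0.0016), and PAD4 (AT3G52430), a salicylate signalling gene, fell (log2 -0.61, limma adjusted p = 0.00598). Without white-light library 1 or 2 there were 3 rises, and without shade library 2 or 3 there were 2. Of 9 tested of 14 genes of rapid touch, wound and cold responses, the calmodulin-like gene TCH3 (AT2G41100) alone rose, with 125, 266 and 229 TPM in shade, against 41.2, 26.7 and 51 TPM in white light (log2 change 2.33, SE 0.31, limma adjusted p = 0.000686). Without white-light library 3 there were 2 rises. ZAT10, ZAT12 and ERF6 were at log2 0.62, -0.75 and 0.61 without a call.

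Lists of cell division and leaf growth are read against the 6.60% of all tested genes that fell and the 3.45% that rose. Of 8 CIN-type TCP genes, which restrain leaf cell division and also act on auxin synthesis, TCP2 (AT4G18390) fell, with 11.8, 11.4 and 12 TPM in shade, against 20.8, 25 and 20.1 TPM in white light (log2 change -0.84, SE 0.11, limma adjusted p = 0.00077). The other TCP genes lay between log2 -0.95 and -0.05, and the median was -0.59. Without shade library 1 there were 6 falls, without white-light library 3 there were 2, and TMM scaling gave 3. Of 14 cell-cycle genes, 1 fell and 0 rose (median -0.14). That gene was SMR1 (AT3G10525), an inhibitor of cyclin-dependent kinases, at 43.8, 36.4 and 31.6 TPM in shade, against 91.3, 101 and 63.9 TPM in white light (log2 change -1.16, SE 0.19, limma adjusted p = 0.00247). The mitotic genes CYCB1;1 and CDKB2;1 were at log2 -0.14 and 0.11.

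Markers of the tissues a whole seedling holds were read beside these results, and none of the 5 marker lists had a called member by limma, with 1 gene at an unadjusted p under 0.05. Green-tissue markers summed to 30477, 39369 and 37753 TPM in shade, against 32183, 30941 and 31530.1 TPM in white light. Root markers summed to 2659, 1839.8 and 2399 TPM in shade, against 2726, 2238 and 2906 TPM in white light, so both organs were present in every library. Root hair markers varied more, with 52.8, 26.5 and 34.6 TPM in shade, against 28.2, 8.66 and 36.6 TPM in white light, and shade library 1 and white-light library 2 lay at the ends. Markers of dividing cells stood between 98.1 and 112 TPM in shade and between 106 and 111 TPM in white light. Seed storage transcripts were near 0, at 3.13 TPM or less in sum in every library, and 1 of the 7 passed the filter. The marker gene at an unadjusted p under 0.05 was NRT2.1, a root nitrate transporter gene, at log2 0.85, and it passed the adjusted test without white-light library 2. Whether root hair content has a part in any difference between libraries was not tested.

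Transcript-level values were fitted in the same way to ask whether gene sums hide opposite changes. Of 26448 transcripts tested, 1722 were called (6.51%), with 609 higher in shade (2.30%) and 1113 lower (4.21%). Among 5021 genes with at least 2 tested transcripts, 13 genes (0.259%) had one transcript called higher and another called lower, and for 7 of these the gene sum had no call. AT3G45070, annotated as a sulfotransferase, is such a gene. Its transcript 2 measured 13.3, 14.6 and 10.8 TPM in shade, against 23.1, 31.5 and 30.1 TPM in white light (log2 change -1.07, SE 0.18, limma adjusted p = 0.00521), and its transcript 3 measured 12, 6.55 and 13.4 TPM in shade, against 0, 0 and 2.13 TPM in white light (log2 change 2.94, SE 0.49, limma adjusted p = 0.00468). The sum of the gene was at log2 -0.28 with no call, and both transcript calls held in all 16 alternatives. For COV1, a gene of vascular patterning, transcript 1 was listed at 0 in every shade library and at 5.99, 3.87 and 5.39 TPM in white light, while transcript 2 measured 41.7, 41 and 40.6 TPM in shade, against 27.9, 21.2 and 28.5 TPM in white light. The call of COV1 transcript 2 ended without white-light library 2 or any of the shade libraries (highest limma adjusted p = 0.0789). SVP, a MADS-box repressor of flowering, fell as a gene sum (log2 -0.90, limma adjusted p = 0.000687). Its main transcript 3 measured 23.8, 26.4 and 24 TPM in shade, against 43.6, 46.3 and 52.1 TPM in white light (log2 change -0.91, SE 0.10, limma adjusted p = 0.000502), and transcript 1 measured 3.25, 3.91 and 3.88 TPM in shade, against 17.3, 19.4 and 9.23 TPM in white light. The minor transcript 2 was higher in shade, with 2.42, 7.4 and 4.7 TPM in shade, against 0, 0.39 and 0 TPM in white light. The calls of transcripts 1 and 2 of SVP ended without white-light library 1 or shade library 2 or 3, and the call of transcript 1 also without white-light library 2 or shade library 1 (highest limma adjusted p = 0.112). EMB2820 transcript 5 was listed at 0 in every shade library and at 12.9, 17.2 and 11.8 TPM in white light, and transcript 2 measured 5.79, 7.5 and 6.4 TPM in shade, against 0, 0 and 3.14 TPM in white light, with a call that ended without white-light library 1 or 2 or shade library 2 or 3. No source used here gives how reads were divided among transcripts of a gene. The number of such genes was 2 without shade library 2 or 3, 6 without white-light library 2 or shade library 1, and 17 without white-light library 3, and the count of called transcripts was 976, 946 or 765 without white-light library 2, shade library 2 or shade library 3.

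**Figure D5:**
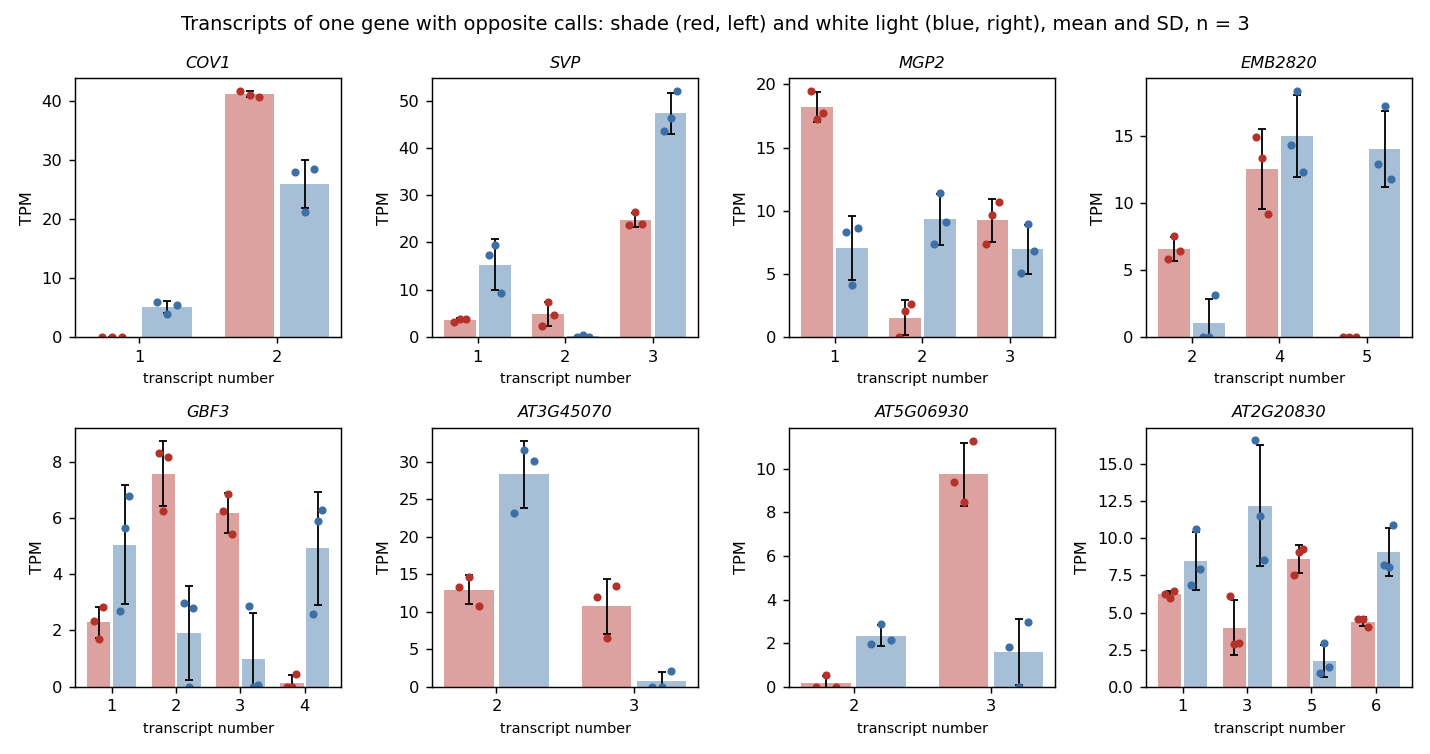
TPM of the transcripts of 8 genes that had one transcript called higher and another called lower in shade; bars are means with SD (n = 3), points are libraries, red at the left is shade and blue at the right is white light. COV1 transcript 1 and EMB2820 transcript 5 are at 0 in shade, and AT3G45070 shows transcripts 2 and 3 moving to opposite sides.

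The same comparison in bzip59 shared no library with that in Col-0, but it came from the same fit. The comparisons shared each gene's estimate of the spread, and genes were filtered on Col-0 means, so the calls are not independent. In bzip59 2001 genes were called, and 1048 were called in both genotypes to the same side. These are 53.1% of the Col-0 calls and 52.4% of the bzip59 calls. How much of this overlap comes from the shared spread was not tested. The test of the difference between the genotypes called 0 of 19650 genes by limma (0.00%), with 1573 at an unadjusted p under 0.05, and none of the 120 genes picked by rule passed it.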

How the data were processed

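RNA was taken from whole seedlings, selected on oligo(dT) beads and copied with random primers for Illumina libraries, per the labels' protocols. The submitters' processing notes name fastp, cutadapt, HISAT2, DESeq2 and the build TAIR10, with no versions. The authors deposited a TPM value for each transcript and library, per the file headers, and no source used here names the tool behind the TPM. The 54013 transcripts were summed to 32833 genes. Every library column matched a sample (0 did not), and group mean columns were not used.

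Genes averaging 1 TPM or more over the 6 Col-0 libraries were fitted with limma 3.58.1 (R 4.3.3, intensity trend, two-sided) on log2(TPM + 1), as 4 group means over 12 libraries with 8 residual degrees of freedom. A call is a Benjamini-Hochberg adjusted p under 0.05 over all tested genes. Values within a group are from 3 libraries. Count-based tests could not be used on TPM. The 31 lists had 634 entries, all found in the table (627 distinct genes). Symbols came from RefSeq records, which matched 32548 genes. Members and lists were chosen with earlier results of these data known, so they get no test of their own. Named genes were the 15 largest rises and 15 largest falls among protein-coding genes without overlap, up to 3 called members per list and direction by p, and up to 8 genes with opposite transcripts; other list members are shown as examples. The pipeline was tested on simulated data. Alternatives were pseudocounts of 0.1 and 0.5, no filter, at least 5 TPM, TMM (trims of 30% and 5%, own implementation) and quantile scaling, no trend, only the Col-0 libraries, no bzip59 white-light library 2, a replicate block, protein-coding genes, a second threshold of 1 on the size of the log2 change, and leaving out each Col-0 library. List counts under them were added after the data were seen. Python 3.11.15, pandas 2.3.3, numpy 2.4.6 and matplotlib 3.10.9 made tables and figures.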

Additional observations from a re-analysis of the deposited data

How the results depend on the processing

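The count of 1973 called genes moved most with single libraries: leaving out each Col-0 library gave between 997 and 2095, and 988 of the genes called without shade library 3 were also among the 1973, in the same direction (50.1% of them). With an absolute log2 change of at least 1 required as well, the count was 774. The other settings gave between 1417 (only the 6 Col-0 libraries) and 2452 (without bzip59 white-light library 2). The share of rises was 34.3%, and between 28.6% (without shade library 1) and 39.7% (TMM factors, or without white-light library 3). The difference between the genotypes had 0 calls, 1 with no filter and between 0 and 2 with a Col-0 library left out. Called transcripts numbered 1722, 869 with only the 6 Col-0 libraries, and between 765 (without shade library 3) and 2080 (without bzip59 white-light library 2) with a library left out. Across the lights, same-numbered Col-0 libraries had correlations of deviations of 0.032, 0.062 and 0.078, and differently numbered ones lay between -0.117 and 0.064. Correlations this weak cannot decide whether the numbers pair the libraries. The replicate block gave 1980 called genes, 1657 called transcripts and 0 genes for the difference between the genotypes. Shade library 1 and white-light library 1 correlated best with libraries of another number, and libraries 2 and 3 of each light with the same number.

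Of the 120 named genes, 87 kept their call in every alternative run, 33 lost it in at least 1, and 0 changed direction. Of 117 further called list members, 69 kept and 48 lost theirs. Depth is unknown, so whether a low gene could have been called is limited by the spread alone; 501 tested genes were listed at 0 in some Col-0 library, and 8 called genes were at 0 in all libraries of a light.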

Other observations

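Ranked by the difference of mean TPM between the lights, the called genes with the largest losses and gains included several outside the lists, and they were chosen after their values were seen. CP12-2 (AT3G62410), which ties together Calvin cycle enzymes, was at 531, 739 and 579 TPM in shade, against 1588, 1988 and 1136 TPM in white light (log2 change -1.33, SE 0.21, limma adjusted p = 0.00176), and FBA5 (AT4G26530), a fructose-bisphosphate aldolase gene, was at 126, 148 and 132 TPM in shade, against 608, 422 and 473 TPM in white light (log2 change -1.87, SE 0.15, limma adjusted p = 1.89e-05). Neither overlapped between the lights. RBCS1B (AT5G38430), a small subunit of Rubisco with near-identical copies, measured 2769, 2389.8 and 1868 TPM in shade, against 5416, 5524 and 3063 TPM in white light, and its call ended without white-light library 1 or 2 or shade library 2 or 3 (highest limma adjusted p = 0.11). ECS1 (AT1G31580), a gene named for disease resistance, measured 167, 221 and 194 TPM in shade, against 604, 773 and 539 TPM in white light (log2 change -1.71, SE 0.18, limma adjusted p = 0.000141), and the ubiquitin-conjugating enzyme gene UBC8 (AT5G41700) measured 382, 402 and 362 TPM in shade, against 727, 906 and 704 TPM in white light (log2 change -1.02, SE 0.16, limma adjusted p = 0.00195). Both were lower in every shade library. Among gains beside IAA2 and XTH4, AT1G62480 stood at 701, 724 and 717 TPM in shade, against 355, 303 and 525 TPM in white light (log2 change 0.89, SE 0.17, limma adjusted p = 0.00687). AT3G15450, a member of the starvation list, measured 608, 1247 and 1226 TPM in shade, against 369, 132 and 580.3 TPM in white light, and it lost its call without white-light library 1 or 2 or shade library 2 or 3 (highest limma adjusted p = 0.167).

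Non-coding genes were also called, although libraries were selected for poly(A) RNA. Of 598 tested long non-coding RNA genes, 11 rose and 29 fell, which is 6.69% against 10.0% of all tested genes. AT5G01215 measured 27.8, 49.4 and 45 TPM in shade, against 7.67, 5.98 and 14.1 TPM in white light (log2 change 2.06, SE 0.28, limma adjusted p = 0.000821), and AT1G69252, annotated as a non-coding RNA, measured 38.8, 44.5 and 44.6 TPM in shade, against 93.4, 104 and 98 TPM in white light (log2 change -1.19, SE 0.14, limma adjusted p = 0.000332). Each was separate between the lights, and neither lost its call in an alternative. MIR163 (AT1G66725), a microRNA precursor gene, measured 8.8, 4.95 and 6.15 TPM in shade, against 23.8, 26.8 and 54.6 TPM in white light (log2 -2.18, limma adjusted p = 0.0153), with a call that ended without white-light library 3 or shade library 2 or 3 (highest limma adjusted p = 0.0653). The small nuclear RNA genes U5.5 and U6.5 were listed at 0 in white light. U5.5 measured 42.5, 147 and 209 TPM in shade and U6.5 measured 99.3, 40.5 and 37.2 TPM, and the call of U6.5 ended whichever single Col-0 library was left out (highest limma adjusted p = 0.0702).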
